A study of Rattus norvegicus with 6 samples.

Results

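The tubulin genes examined here are 10 rat genes that encode the building blocks of microtubules, 4 alpha-tubulins (Tuba1a, Tuba1b, Tuba1c and Tuba4a) and 6 beta-tubulins (Tubb2a, Tubb2b, Tubb3, Tubb4a, Tubb5 and Tubb6). Each gene was located by its symbol in the table of assembled gene rows, with protein-coding rows preferred and, where several were left, the one with more counts over the 6 libraries. Tuba1a and Tuba1b shared 1 joined row, as did Tubb2a and Tubb2b, so the 10 genes lay on 8 of 43350 rows. All 8 rows passed the filter on low values (0.5 FPKM or more on average), which left 26663 rows for testing.

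Alpha- and beta-tubulin form heterodimers that polymerise into microtubules, the tracks along which motor proteins carry vesicles, organelles and mRNA. A sensory neuron of the dorsal root ganglion (DRG) depends on them along its whole axon, and each tubulin isotype is known by its own tail sequence and its own pattern across tissues. Class III beta-tubulin, the product of Tubb3, is a standard marker of neurons.

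RNA was taken from ipsilateral L4–6 DRG of male Sprague-Dawley rats 11 days after surgery. In the CCI group (n = 3) the left sciatic nerve had been loosely ligated, which is the chronic constriction injury model of neuropathic pain, and in the sham group (n = 3) the nerve had been exposed and left untied. Each library came from 1 rat per the study's methods, although the labels speak of pooled RNA, and the rats had been retained for the behaviour their group was meant to show. A DRG holds neurons with and without an injured axon, satellite glia, Schwann cells, macrophages, fibroblasts and vessels, and in such bulk RNA fewer cells of a type and less RNA per cell cannot be told apart.

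The 6 libraries held 75423546 to 87615743 counts each and the 8 tubulin rows took 0.758% to 1.06% of them, so that even the lowest tubulin row, Tubb6, rested on 852 counts or more per library. Neuronal markers were at high counts in every library, and of 17 of them 0 rose or fell by the limits defined below. The first principal component (26.6% of the variance) separated the groups and placed CCI replicate 1 farthest out. Skeletal muscle markers summed to 488 CPM (counts scaled to library size) in sham replicate 1 against 54.1 to 121 in the other libraries, and values without that library are given where they matter. The muscle list includes Pvalb, which is not specific to muscle, and its part in these sums was not separated.

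Upstream sequence is shown for 4 of the genes because they span the range of responses described below, from the row with the largest difference (Tubb6) through the joined pair (Tubb2a and Tubb2b) to the only row with a negative log2 fold change (Tuba4a). The stretches are the 250 bases before the RefSeq start in GRCr8, an assembly other than the one used for the count table. They lie at chr18:63213037-63213286 on the plus strand for Tubb6, chr17:31001936-31002185 on the plus strand for Tubb2a, chr17:30952836-30953085 on the plus strand for Tubb2b and chr9:84162585-84162834 on the minus strand for Tuba4a. Each is written 5′ to 3′ along its gene, with capitals for the cyclic AMP response element (CRE) TGACGTCA, its core TGACG on either strand, and the TATA box letters TATAAA.
Tubb6: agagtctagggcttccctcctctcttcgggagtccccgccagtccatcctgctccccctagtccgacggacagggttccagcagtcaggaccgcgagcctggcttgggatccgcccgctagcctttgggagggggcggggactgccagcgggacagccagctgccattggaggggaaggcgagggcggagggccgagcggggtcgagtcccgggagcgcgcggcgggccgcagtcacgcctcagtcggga
Tubb2a: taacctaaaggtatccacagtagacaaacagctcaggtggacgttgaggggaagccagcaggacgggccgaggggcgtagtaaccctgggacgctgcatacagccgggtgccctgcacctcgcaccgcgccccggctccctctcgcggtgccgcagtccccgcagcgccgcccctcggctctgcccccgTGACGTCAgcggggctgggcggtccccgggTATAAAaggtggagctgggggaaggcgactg
Tubb2b: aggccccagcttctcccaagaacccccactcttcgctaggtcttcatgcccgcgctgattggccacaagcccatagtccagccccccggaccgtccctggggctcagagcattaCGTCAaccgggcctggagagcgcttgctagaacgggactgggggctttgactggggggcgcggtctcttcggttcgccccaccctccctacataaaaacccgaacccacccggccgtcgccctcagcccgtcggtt
Tuba4a: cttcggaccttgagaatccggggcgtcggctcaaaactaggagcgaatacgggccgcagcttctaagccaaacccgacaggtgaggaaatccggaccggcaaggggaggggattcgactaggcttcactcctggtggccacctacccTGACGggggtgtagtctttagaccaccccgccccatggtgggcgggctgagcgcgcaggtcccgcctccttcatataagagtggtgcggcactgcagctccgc

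All 10 genes were matched in the RefSeq promoter table, which held 33469 promoters. The full CRE was found in 1 of the 10 tubulin stretches, that of Tubb2a at bases 61 to 54 before the start, against 1.59% of all promoters. Its core TGACG, which the full element contains on both strands, was found in 4 (Tubb2a, Tubb2b, Tuba4a and Tubb4a) against 18.2% of all. The AP-1 site TGANTCA was in 0 of the 10 tubulin stretches and in 6.34% of all promoters, so the stretch of Tubb6 held neither these letters nor a CRE core. TATAAA was in 1, again Tubb2a, against 12.9% of all. The CCAAT box (CCAAT, 34.0% of all) was in 7 and the GC box (GGGCGG, 30.5% of all) in 8 of the 10, and the GC content of the tubulin stretches ran from 56.8% to 80.4%, all above the median of 51.2% for all promoters. Both strands were searched for every motif, and a match describes letters, not a bound site.

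Levels between the tubulin genes are compared per length, in FPKM as deposited. Tubb3 was the highest tubulin row in both groups, at 1388 ± 89.1 FPKM in CCI and 1109 ± 81.9 in sham (mean ± SD, n = 3 each), and ranked 3 among all protein-coding rows tested. The joined row of Tuba1a and Tuba1b, the alpha-tubulins of growing neurons and of most cells, respectively, followed at 1211 ± 86.8 and 970 ± 137 FPKM, with a rank of 5. Its range overlapped that of Tubb3 in sham and lay below it in CCI. Tubb5, the broadly used class I beta-tubulin, came next at 324 ± 25.3 in CCI and 292 ± 36.2 in sham, apart from its neighbours on both sides. The middle of the order was crowded. In CCI the joined Tubb2a and Tubb2b row (205 FPKM), Tuba1c (199), Tubb4a (176) and Tuba4a (170) each overlapped the next, whereas in sham Tuba4a (178), Tubb4a (173) and Tuba1c (164) overlapped in turn and Tubb2a and Tubb2b lay below them at 137 ± 7.41. Tubb6, a beta-tubulin made at low levels in many tissues, was far below the others at 13.7 ± 1.62 and 5.75 ± 0.418 FPKM. FPKM of a joined row is spread over the length of both genes (about 3569 bases for Tuba1a with Tuba1b and 5135 for Tubb2a with Tubb2b, as implied by counts and FPKM), and it does not show how much each gene gave.

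Whether nerve constriction went with a change in tubulin mRNA was examined by comparing CCI with sham in edgeR's quasi-likelihood test over all 26663 rows. A row was called at the study's limits, an unadjusted p under 0.05 together with a log2 fold change of 0.58 or more either way. Of the 8 tubulin rows 1 was called higher in CCI, Tubb6, and 0 lower, beside 2.57% higher and 1.26% lower of all rows. At a Benjamini-Hochberg adjusted p under 0.05, Tubb6 was again the 1 row called, beside 0.0638% of all rows higher and 0.03% lower. With the p limit alone, a threshold chosen after the values were seen, 5 of 8 tubulin rows were higher and 0 lower, beside 5.57% and 5.18% of all rows and 11.7% higher of the 351 rows that averaged 100 FPKM or more. Of the 8 rows 7 had a log2 fold change above 0, beside 51.0% of all rows, and the median was 0.28 over the tubulin rows and 0.01 over all rows. In 5 of 8 rows every CCI library lay above every sham library, beside 8.63% of all rows and 14.8% of the 351 highly expressed rows. Tubb6, at a mean of 9.74 FPKM, is not among the 351, whereas the other tubulin rows are, so the 2 sets are not alike.

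**Figure D1:**
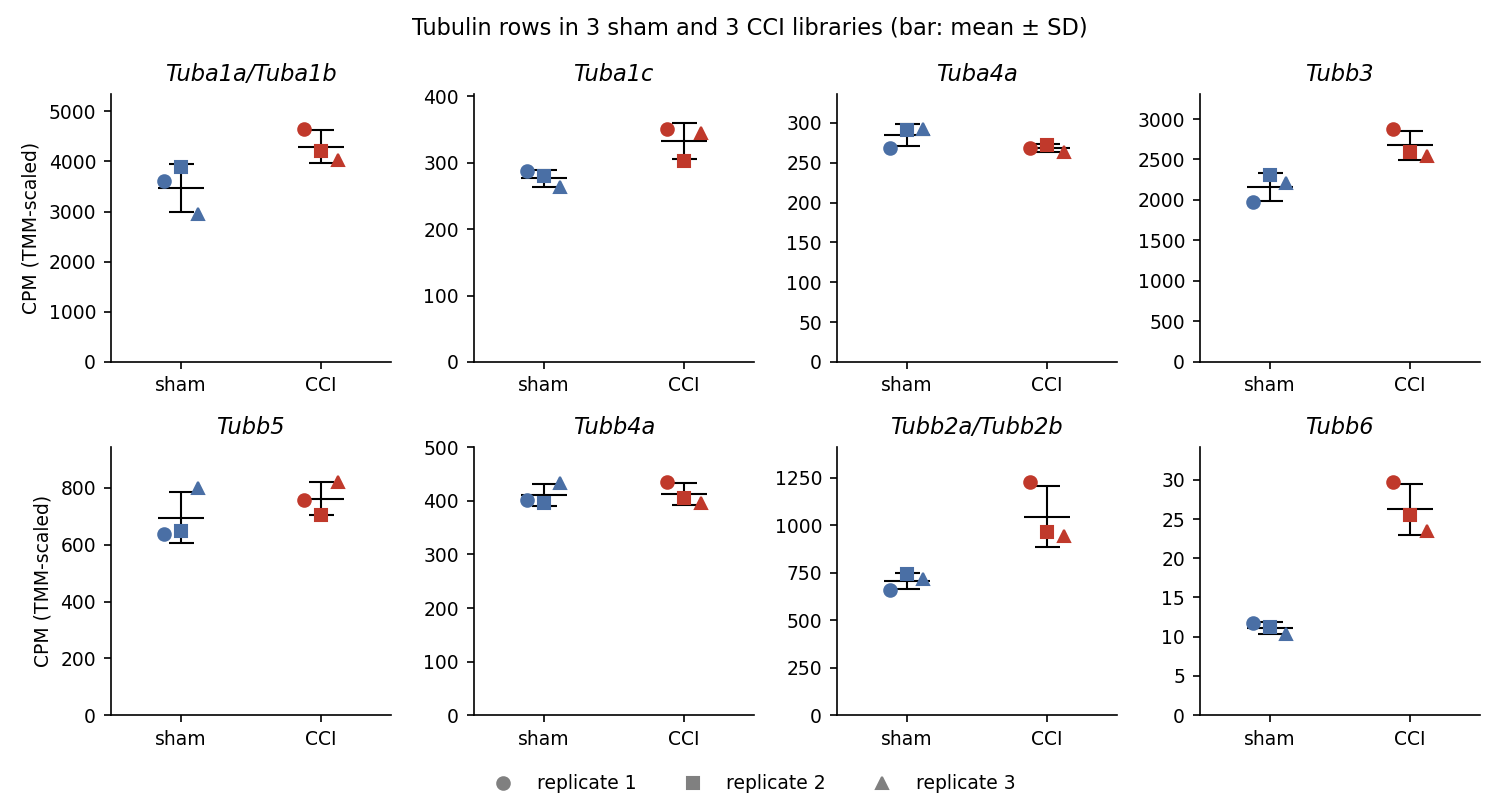
TMM-scaled CPM (vertical axis, from 0, a scale for each panel) of the 8 tubulin rows in 3 sham and 3 CCI libraries, with bars for mean ± SD and a marker shape for each replicate number. The groups are farthest apart for Tubb6 (10.3 to 11.7 in sham, 23.5 to 29.7 in CCI) and overlap for Tuba4a, Tubb5 and Tubb4a.

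Tubb6 was the only tubulin gene whose row was called higher at the study's limits. Its row (MSTRG.13965, chr18:63130542-63140181 in the files' coordinates, plus strand) held 2419, 2058 and 1788 counts in CCI replicates 1 to 3 and 1031, 895 and 852 in sham replicates 1 to 3. Scaled to depth these were 29.7, 25.5 and 23.5 CPM in CCI and 11.7, 11.3 and 10.3 CPM in sham. Every CCI library stood well above any sham library, with a wide gap between the groups. The log2 fold change was 1.24 (SE 0.11, 95% interval 0.97 to 1.51), or 2.36-fold (edgeR, unadjusted p = 1.82e-05, adjusted p = 0.0303), at the 98.1 percentile of all rows. It stayed between 1.12 and 1.32 under 16 other settings and was called at the study's limits in all 16. When 1 library was left out the adjusted p was less steady, at 0.124 without CCI replicate 2, 0.123 without sham replicate 1, 0.126 without sham replicate 2 and 0.14 without sham replicate 3 (edgeR), so the call at an adjusted p under 0.05 was lost in each of these. With the replicate number added to the edgeR fit as a block, the adjusted p was 0.194.

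Tubb6 is also known from muscle and from cells other than neurons. Skeletal muscle markers were lower in CCI, with 6 of 9 called lower, beside 1.26% of all rows. In 2 of the 9 every CCI library lay below every sham library, beside 8.7% of all rows. The median log2 fold change of the 9 was -3.41, and they summed to 54.1 to 63.9 CPM in CCI. In sham the sums were 488 CPM in replicate 1 and 74.4 and 121 in the others. The count and the median include sham replicate 1. Without that library the log2 fold change of Tubb6 was 1.28. Macrophage markers were higher in CCI, with 6 of 12 called higher at the study's limits, beside 2.57% of all rows. These markers summed to 142 to 205 CPM in CCI against 103 to 132 in sham, and no macrophage marker was at 0 in all libraries. Of the cell cycle markers tested 0 of 8 were called, with sums of 46.7 to 51.4 CPM in CCI and 39.2 to 51.2 in sham. The part of muscle and macrophage RNA in the Tubb6 result was not tested.

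The joined row of Tubb2a and Tubb2b, neuron-enriched class II beta-tubulins of which Tubb2b is known from the developing brain, had the next largest difference. The row (MSTRG.12802, chr17:31441630-31498651, plus strand) stood at 1229, 965 and 941 CPM in CCI and 659, 742 and 720 CPM in sham. CCI replicate 1 was the highest library by a wide margin, yet the lowest CCI library still lay above the highest sham library. The log2 fold change of 0.56 (SE 0.11, 95% interval 0.29 to 0.84, 1.48-fold; edgeR, unadjusted p = 0.00203, adjusted p = 0.168) fell just short of the fold limit, so the row was not called. It passed the limit without CCI replicate 2 (0.62), CCI replicate 3 (0.63) or sham replicate 2 (0.60). The log2 fold change was 0.43 without CCI replicate 1 and 0.52 without sham replicate 1. DESeq2 gave an adjusted p of 0.000798 for this row, and the other settings up to 0.407.

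Tubb3 showed a smaller difference on a much higher level. Its row (MSTRG.14890, chr19:56220755-56229813, plus strand) was at 2883, 2592 and 2548 CPM in CCI and 1971, 2311 and 2205 CPM in sham. All 3 CCI libraries were above all 3 sham libraries, with CCI replicate 1 highest and sham replicate 1 lowest. This gave a log2 fold change of 0.31 (SE 0.08, 95% interval 0.11 to 0.50; edgeR, unadjusted p = 0.00832, adjusted p = 0.268), under the fold limit. The log2 fold change was lowest, at 0.24, without sham replicate 1, the library highest in muscle markers. The unadjusted p stayed under 0.05 in 16 of 16 other settings (0.00221 to 0.0282), and the adjusted p ran from 0.0642 to 0.508.

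Other neuronal markers were set beside Tubb3. Of the 17 markers 6 had a log2 fold change above 0, beside 51.0% of all rows, and the median was -0.03. At the p limit alone 1 marker was higher and 4 lower, beside 5.57% and 5.18% of all rows. The 17 markers summed to 14217 to 16004 CPM in CCI and 17959 to 18371 in sham. Among them the neurofilament genes Nefl, Nefm and Nefh encode proteins that fill large axons. Without these genes the other 14 summed to 7203 to 7308 CPM in CCI and 6602 to 7642 in sham, with a median of -0.02. These 3 genes were set apart after their values were seen. Nefl was the 1 marker of the 17 with an adjusted p under 0.05, at a log2 fold change of -0.57 (edgeR, adjusted p = 0.0457).

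Among the alpha-tubulins, the joined row of Tuba1a and Tuba1b carried most of the signal. This row (MSTRG.26555, chr7:140614752-140640953, minus strand) was at 4658, 4206 and 4026 CPM in CCI and 3607, 3881 and 2947 CPM in sham. The groups did not overlap, but the highest sham library came close to the lowest CCI library and sham replicate 3 lay well below the others. A log2 fold change of 0.30 (SE 0.11, 95% interval 0.03 to 0.58; edgeR, unadjusted p = 0.034, adjusted p = 0.415) resulted, under the fold limit. It went over an unadjusted p of 0.05 without CCI replicate 1 (0.0999), CCI replicate 2 (0.0633), sham replicate 1 (0.0554) or sham replicate 3 (0.0682), and the log2 fold change was 0.20 without the last of these.

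Tuba1c, a further alpha-tubulin of the same chromosome 7 cluster (MSTRG.26552, chr7:140716113-140723714, plus strand), was at 352, 302 and 344 CPM in CCI and 288, 280 and 263 CPM in sham. Again every CCI library was above every sham library, with CCI replicate 2 nearest to sham. Its log2 fold change was 0.26 (SE 0.07, 95% interval 0.09 to 0.44; edgeR, unadjusted p = 0.0104, adjusted p = 0.286), under the fold limit, with an unadjusted p of 0.003 to 0.0368 over 16 of 16 other settings.

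Tuba4a, whose product lacks the final tyrosine that most alpha-tubulin genes encode, was the exception in sign. The row (MSTRG.29121, chr9:82415605-82419288, minus strand) was at 269, 273 and 263 CPM in CCI and 269, 292 and 293 CPM in sham. Sham replicate 1 fell among the CCI libraries, so the groups overlapped. Its log2 fold change was -0.09 (SE 0.05, 95% interval -0.22 to 0.04; edgeR, unadjusted p = 0.162), negative in all settings tried and with an unadjusted p under 0.05 in 0 of 16. The interval reaches no gain beyond 0.04. Without sham replicate 1, the library highest in muscle markers, the log2 fold change was -0.125 (edgeR, unadjusted p = 0.0522).

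Tubb4a and Tubb5 gave no call in either direction. Tubb4a, the class IVa beta-tubulin of brain and of myelinating cells (MSTRG.28379, chr9:9961021-9968486, plus strand), was at 436, 406 and 397 CPM in CCI and 402, 395 and 434 CPM in sham, with fully interleaved groups. For this row the log2 fold change was 0.01 (SE 0.06, 95% interval -0.14 to 0.16; edgeR, unadjusted p = 0.906) and turned negative when 1 of 3 libraries was left out, so it has no stable sign. Tubb5 (MSTRG.17165, chr20:3422461-3426371, plus strand) was at 758, 706 and 821 CPM in CCI and 639, 648 and 799 CPM in sham. Sham replicate 3 reached into the CCI range. A log2 fold change of 0.13 (SE 0.11, 95% interval -0.12 to 0.38; edgeR, unadjusted p = 0.255) was found. It ranged from 0.07 without CCI replicate 3 (edgeR, unadjusted p = 0.551) or sham replicate 1 (unadjusted p = 0.542) and 0.08 without sham replicate 2 to 0.24 without sham replicate 3 (unadjusted p = 0.0242).

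**Figure D2:**
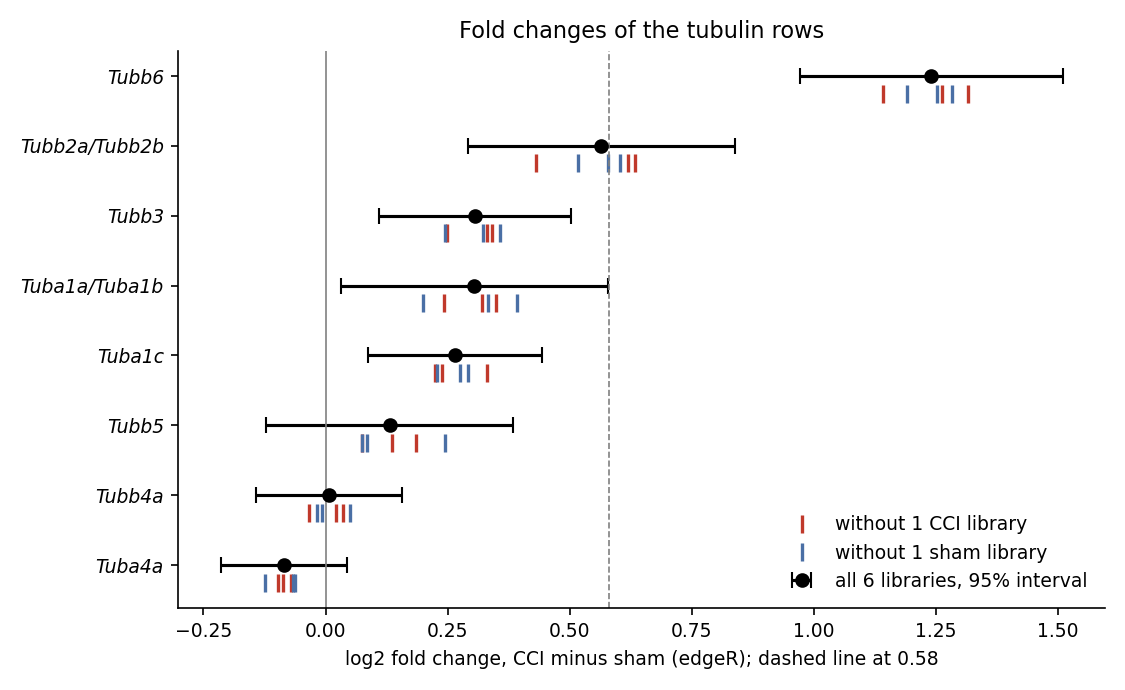
Log2 fold change of CCI against sham (horizontal axis, edgeR) for each tubulin row, with 95% intervals from all 6 libraries and ticks for the fits that leave out 1 CCI (red) or 1 sham (blue) library. Tubb6 alone lies beyond the dashed line at 0.58 in every fit, the Tubb2a and Tubb2b row straddles it (0.43 to 0.63), and Tubb4a straddles 0.

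The plot of fold changes shows that a single library moved several rows together. CCI replicate 1 was the highest of the 6 libraries in 6 of 8 tubulin rows, and it was also the library farthest out on the first principal component and the highest in the summed level of 10 genes known to be induced in injured sensory neurons (911 CPM, against 659 and 562 in the other CCI libraries and 243 to 255 in sham). Without it the log2 fold change was 1.14 for Tubb6, 0.43 for Tubb2a with Tubb2b, 0.25 for Tubb3, 0.24 for Tuba1a with Tuba1b and 0.22 for Tuba1c. Each of these 5 kept its sign.

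The make-up of the tubulin rows above was compared within libraries, as shares of the summed FPKM of the alpha or the beta rows. Tubulin genes outside these rows were left out of the sums. Among them was the beta-tubulin Tubb4b, at a mean of 270 FPKM over all libraries. The means were 171 for Tubb2a with Tubb2b and 175 for Tubb4a. The sums, their ratio and the shares thus describe the rows examined, not all alpha- or beta-tubulin mRNA. The alpha rows summed to 1580 ± 93.2 FPKM in CCI and 1312 ± 142 in sham, a ratio of 1.20, and the beta rows to 2107 ± 126 and 1718 ± 104, a ratio of 1.23. The ratio of the alpha sum to the beta sum was 0.75 ± 0.0109 in CCI and 0.767 ± 0.107 in sham. The FPKM of each joined row is divided by the length of both its genes, which lowers its weight in the sums. The size of this ratio and of the shares below depends on that division and does not give the proportion of alpha to beta mRNA. For the alpha and the beta rows alike every CCI library had a higher sum than every sham library. The ratio of the sums ran from 0.646 to 0.848 over the sham libraries.

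Within the beta rows the share of Tubb6 was 0.689%, 0.66% and 0.603% in CCI and 0.383%, 0.329% and 0.297% in sham. The joined Tubb2a and Tubb2b row made up 10.7%, 9.36% and 9.05% of beta FPKM in CCI and 8.06%, 8.1% and 7.77% in sham. Tubb4a went the other way, with 8.24%, 8.58% and 8.32% in CCI and 10.7%, 9.41% and 10.2% in sham. For these 3 rows the groups did not overlap, and the exact two-sided permutation test gave p = 0.1, the smallest that 3 against 3 libraries allow. Tubb3 held 65.9% ± 0.869 in CCI and 64.6% ± 2.00 in sham (exact permutation p = 0.4), and Tubb5 held 15.4% ± 1.52 and 17.01% ± 1.68 (exact permutation p = 0.3).

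Within the alpha rows Tuba4a made up 10.04%, 11.2% and 11.04% in CCI and 12.5%, 12.8% and 15.8% in sham, again without overlap (exact permutation p = 0.1). Tuba1a with Tuba1b held 76.6% ± 1.18 in CCI and 73.8% ± 2.59 in sham (exact permutation p = 0.2), and Tuba1c held 12.6% ± 0.974 and 12.5% ± 0.904 (exact permutation p = 0.9). The levels of Tuba4a and Tubb4a themselves were not called, and a share also moves with the other rows of its sum. How often such shares lie apart for other genes was not counted, so no conclusion is drawn from the lack of overlap.

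**Figure D3:**
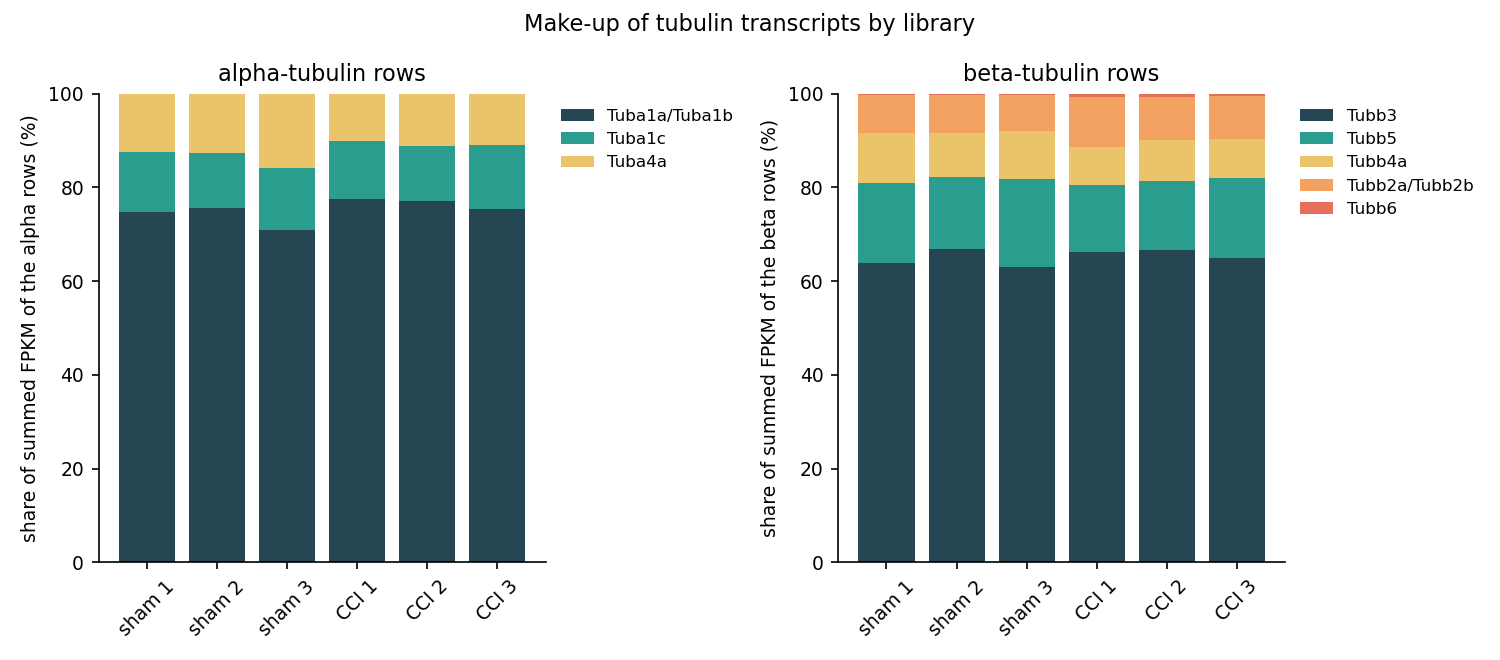
Share (%) of each row in the summed FPKM of the 3 alpha rows (left) and of the 5 beta rows (right), with 1 stacked bar per library. In CCI the Tubb2a and Tubb2b and Tubb6 bands are wider and the Tubb4a and Tuba4a bands narrower than in every sham library, while Tubb3 stays near 65.9% of the beta rows in CCI and 64.6% in sham.

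Pairs of rows were also set against each other inside each library, which cancels depth and any factor common to the library. Of the 28 pairwise log2 ratios of CPM, 17 had CCI and sham libraries apart and 11 overlapped. Tubb6 was apart from the other rows in 7 of 7 ratios, and the joined Tubb2a and Tubb2b row, Tuba4a and Tubb4a in 5 of 7 each. The 28 ratios reuse the same rows, so these counts are not independent and restate the fold changes given above. The share apart was not counted for ratios of other genes, so no conclusion is drawn from the counts. No ratio could reach a smaller exact permutation p than 0.1, and the smallest adjusted over the 28 was 0.165. The ratio of Tubb3 to Tuba1a with Tuba1b, the main beta and alpha rows, was -0.68 ± 0.02 in CCI and -0.68 ± 0.23 in sham on the log2 scale, with a difference of 0.00 between the groups.

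Genes with the most similar pattern were sought by the root mean square difference of centred log2 CPM over the 6 libraries, among 6951 protein-coding rows averaging 5 FPKM or more. Nearest to Tubb6 were Ccl2, a chemokine that attracts monocytes (0.108), Jun, an AP-1 transcription factor induced by axon injury (0.123), and Gap43, a growth cone protein (0.141). Nearest to Tubb2a with Tubb2b were Meis3 (0.0516), Acsl4 (0.0539) and Rhoc (0.0561), and nearest to Tubb3 were Itga7 (0.0151), Mafk (0.0325) and Ppp4r1 (0.0333). The row of Tuba1a with Tuba1b was closest to Rhog (0.036), LOC100909595 (0.045) and Pcbd1 (0.0521), and Tuba1c to LOC100909441 (0.0116), Smox (0.0297) and Serinc5 (0.0392). Klhdc3, Aak1 and Sccpdh were nearest to Tuba4a (0.0117 to 0.0177), Spop, Bicral and Ndufb4 to Tubb4a (0.0156 to 0.0211), and Slc18b1, Gtf3c5 and Snap91 to Tubb5 (0.0454 to 0.051). With 6 libraries such likeness is a description. The values were centred but not scaled, so likeness depends on the size of the fold change and partly restates it. The log2 fold changes were 1.29 for Ccl2, 1.06 for Jun and 1.02 for Gap43, beside 1.24 for Tubb6. The genes nearest to Tubb6 were farther from it than those nearest to any other tubulin row were from that row. The tubulin row most like Tubb6 was that of Tubb2a with Tubb2b, at 0.351.

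The proteins that fold, modify, bind and move along tubulin were examined from 7 lists, including tubulins outside the 10. Of 171 listed genes 148 rows were tested, 1 was called higher and 0 lower, or 0.676% higher beside 2.57% of all rows. Their median log2 fold change was -0.01. With the p limit alone, again chosen after the values were seen, 15 were higher and 11 lower of the 148 rows, beside 5.57% higher and 5.18% lower of all rows.

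The 1 gene called was Stmn4, a neuronal stathmin that binds tubulin dimers. It stood at 50.5, 28.3 and 25.7 CPM in CCI and 13.9, 12.7 and 11.7 CPM in sham. All CCI libraries were higher than all sham libraries, with CCI replicate 1 far above the rest. Stmn4 had a log2 fold change of 1.45 (SE 0.26; edgeR, unadjusted p = 0.00115, adjusted p = 0.136), and 1.08 (adjusted p = 0.0392) without CCI replicate 1. Stmn2, the stathmin of growth cones and the highest of the family here, was at 1936, 1711 and 1617 CPM in CCI and 1329, 1486 and 1383 CPM in sham, also without overlap. Its log2 fold change of 0.33 (SE 0.08; edgeR, unadjusted p = 0.00667, adjusted p = 0.253) was close to that of Tubb3. Over the 8 stathmin and severing enzyme genes tested 1 was called higher and 0 lower, with a median of 0.08.

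No gene of the folding machinery passed a limit. Of 22 genes for tubulin folding, which include the subunits of the chaperonin CCT, 0 were called and 0 had an unadjusted p under 0.05 in either direction, around a median of -0.02. Cct5, the highest of them, had a log2 fold change of 0.01 (SE 0.05; edgeR, unadjusted p = 0.804).

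For the enzymes that modify tubulin, 0 of 20 were called. Ttll7, a ligase that adds glutamate chains to beta-tubulin and the highest of the list, was at 993, 1024 and 1123 CPM in CCI and 1365, 1376 and 1393 CPM in sham. Every CCI library lay below every sham library, as in 8.7% of all rows by any margin, and for Ttll7 the gap was wide. Its log2 fold change of -0.40 (SE 0.06; edgeR, unadjusted p = 0.000437, adjusted p = 0.105) was under the fold limit.

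Among 23 microtubule-associated proteins 0 were called, and Map1b, a neuronal microtubule-binding protein and the highest of them, had a log2 fold change of -0.10 (SE 0.05; edgeR, unadjusted p = 0.107). Of 29 plus-end and minus-end proteins 0 were called, with 0.06 (SE 0.06; edgeR, unadjusted p = 0.342) for Dst, a large linker of microtubules and other filaments. Of 41 motor genes 0 were called, 3 were higher and 7 lower at the p limit alone (5.57% and 5.18% of all rows), and the median was -0.04. Klc1, a light chain of the axonal motor kinesin and the highest of them, was at 935, 940 and 931 CPM in CCI and 1096, 1123 and 980 CPM in sham, with a log2 fold change of -0.19 (SE 0.06; edgeR, unadjusted p = 0.023, adjusted p = 0.368). Its groups did not overlap.

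**Figure D4:**
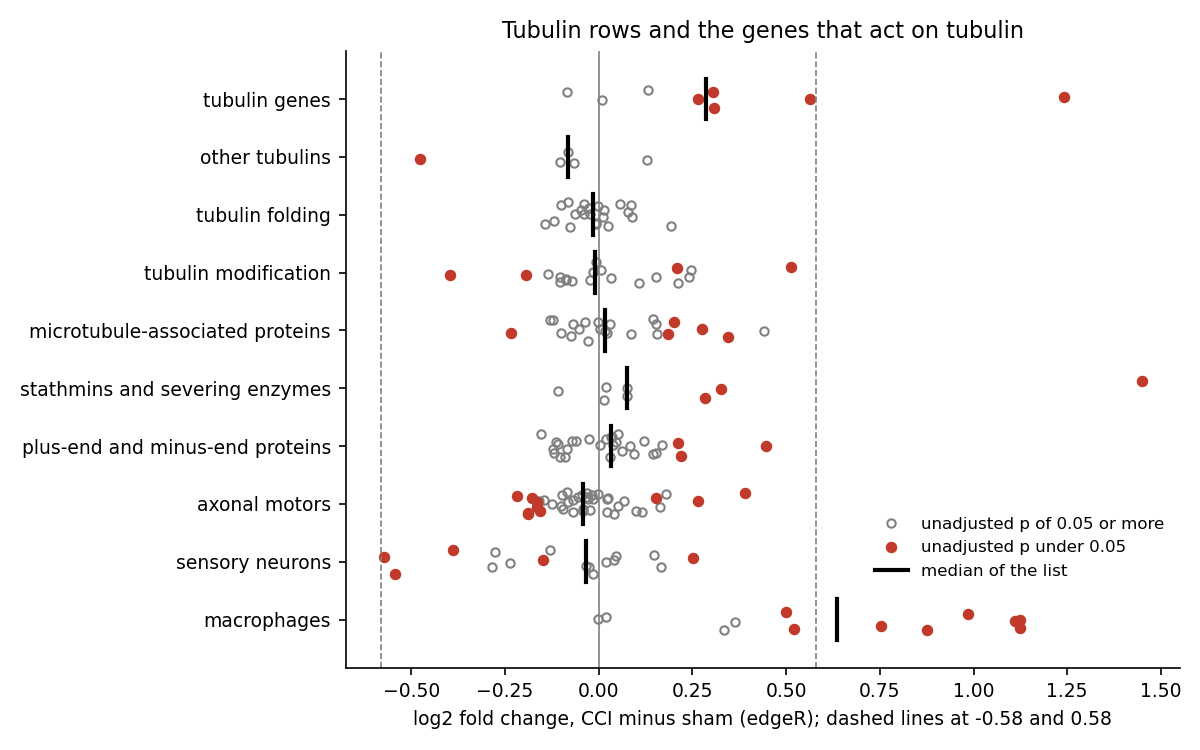
Log2 fold change of CCI against sham (horizontal axis, edgeR) for the tubulin rows, 7 lists of genes that act with tubulin and 2 lists of cell type markers, with 1 point per row, filled where the unadjusted p is under 0.05, and a bar at each list's median. The tubulin rows have a median of 0.28, the folding genes lie around -0.02 and the macrophage markers around 0.64.

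Of the 10 genes known to be induced in injured sensory neurons, given here for scale, 10 were called higher, beside 2.57% of all rows. The median log2 fold change of the 10 was 2.72. That list was drawn up from textbook knowledge of nerve injury and with earlier results of these data known, so its direction is no independent evidence. Npy, a neuropeptide, went from 0.642 to 0.773 CPM in sham to 34.8 to 74.0 in CCI (log2 fold change 6.14, edgeR adjusted p = 0.0049), and the neuropeptide Gal from 1.90 to 2.85 CPM to 31.3 to 83.2 (4.49, edgeR adjusted p = 0.0383). Vip, a further neuropeptide, had 0, 0 and 8 counts in sham and 1344, 374 and 240 in CCI, and Sprr1a, induced in regenerating neurons, 6, 6 and 0 in sham and 429, 133 and 115 in CCI. Gap43, the highest of the list by FPKM, had a log2 fold change of 1.02 (SE 0.15; edgeR, unadjusted p = 0.000362, adjusted p = 0.0974). The difference of Tubb6 was thus nearer in size to that of Gap43 than those of the abundant tubulins were, and all tubulin rows lay far below the median of these 10 genes.

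Reads of near-identical tubulins can be shared or misplaced. RefSeq lists 26 rat tubulin pseudogenes in GRCr8, 14 of them named for Tuba1b and 5 for Tuba1a, and a further gene, Tubb2al1, lies between Tubb2b and Tubb2a. How reads that fit several of these were assigned is not given in the sources used here, and values of the joined rows are uncertain to that extent. Rows on the opposite strand that carry the same symbols held 3.18% to 6.24% of the counts of Tuba1a with Tuba1b and 9.83% to 12.6% of those of Tubb2a with Tubb2b, the latter a row joined with Bphl. Adding them, an alternative chosen after the data were seen, moved the log2 fold change of Tubb2a with Tubb2b to 0.55 and changed no call.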

How the data were processed

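Total RNA of 6 L4–6 DRG samples was depleted of rRNA and sequenced in paired ends with a dUTP protocol. Per the labels, the authors mapped reads with HISAT2 2.0 and assembled them with StringTie 1.3.0. They deposited counts per assembled gene and FPKM side by side. The assembly name and the strand setting of counting are not given in the sources used here. The 6849 rows without a symbol held 5.37% to 5.72% of counts.

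Deposited counts were scaled by TMM and tested in edgeR 4.0.16 (R 4.3.3) by quasi-likelihood with group as the only term, on rows averaging 0.5 FPKM or more, with Benjamini-Hochberg adjustment over all of them. The procedure was checked on simulated counts. Shares of FPKM and pairwise ratios were compared by exact two-sided permutation tests over libraries. Alternatives used DESeq2 1.42.0, limma 3.58.1 on log2(FPKM + 0.1) or log2(FPKM + 1), other scalings and filters, a replicate block, protein-coding rows alone, and each library left out. RefSeq promoters (GRCr8) gave the sequences.

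Members, gene lists and tests were chosen with earlier results of these data known. From each list outside the 10 members, genes passing the limits (at most the 4 largest in each direction) and the gene of highest FPKM were named, and for each tubulin row the 3 rows most like it. Marker genes are given by their lists, except Pvalb and the neurofilament genes. The neurofilament genes were named after their values were seen.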

Additional observations from a re-analysis of the deposited data

How the results depend on the processing

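The direction of 7 of the 8 tubulin rows was kept in all 16 alternatives. Tubb4a turned negative in 3 of them, with a range of -0.033 to 0.0508 when 1 library was left out (-0.033 without CCI replicate 1, -0.00673 without sham replicate 1 and -0.0178 without sham replicate 2). The number of tubulin rows called higher at the study's limits was 1 to 2 when 1 library was left out, the second being Tubb2a with Tubb2b, and the number at an adjusted p under 0.05 was 0 to 1. DESeq2 gave 2 tubulin rows at an adjusted p under 0.05. Related genes called higher numbered 1 to 3 on leaving out 1 library, with Ttll9 and Map6d1 added to Stmn4 without sham replicate 3. These 2 genes were named after their values were seen.

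Over all rows, 410 were called higher and 161 lower by limma on log2(FPKM + 1), and the fit on the 12988 protein-coding rows alone, with fewer rows tested, gave 328 and 113, against 686 and 336. At an adjusted p under 0.05 the counts of 17 higher and 8 lower became 432 and 319 with DESeq2 and 36 and 35 with protein-coding rows alone. limma on log2(FPKM + 0.1) gave 5 lower. They ranged from 3 to 40 higher and 3 to 21 lower when 1 library was left out, with 3 and 3 without CCI replicate 2 and 40 and 21 without CCI replicate 1. The cause was not tested. As shares of summed counts in place of FPKM, Tubb2a with Tubb2b differed by 3.43 points and Tubb6 by 0.252 points, against 1.71 and 0.314. The other shares moved by less than the larger SD of the groups, among them Tuba4a to -1.63 from -2.93, Tuba1a with Tuba1b to 1.73 from 2.87 and Tubb3 to 0.14 from 1.31.

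With the replicate number as a block, 0 tubulin rows and 0 of all rows passed an adjusted p under 0.05, and Tubb6 had an adjusted p of 0.194. The labels do not say whether the replicate numbers pair the animals. Deviations of same-numbered samples correlated at -0.0112, -0.0261 and -0.0745 over rows. This cannot decide the question, since a pairing that touched few genes would not show over all rows. With 3 rats a group, an effect of the size of Tubb3 was not separable from the spread at an adjusted p under 0.05, and p-values measure the spread among these 6 libraries.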

Other observations

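Tubulin genes outside the 10 described above behaved unevenly in level. Tubb4b, the class IVb beta-tubulin of many tissues and of cilia, was the highest of them at 508, 506 and 503 CPM in CCI and 522, 521 and 545 CPM in sham. Every CCI library lay below every sham library, by a small margin. The log2 fold change was -0.07 (SE 0.05; edgeR, unadjusted p = 0.196), so it was not called. Tuba8, named after its values were seen, held 133, 123 and 135 counts in CCI and 231, 159 and 185 in sham, with a log2 fold change of -0.48 (SE 0.19; edgeR, unadjusted p = 0.0402, adjusted p = 0.434). Tubb1, the beta-tubulin of platelets, had 8, 23 and 42 counts in CCI and 92, 32 and 45 in sham and was below the filter, as were Tuba3a, Tuba3b and Tubal3 with 0 to 12 counts per library. The delta-, epsilon- and gamma-tubulin rows (Tubd1, Tube1 and the joined Tubg1 with Tubg2) had log2 fold changes of -0.10, 0.13 and -0.08, none with an unadjusted p under 0.05.

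The opposite-strand row of Tubb2b and Bphl had a log2 fold change of 0.38 (SE 0.11; edgeR, unadjusted p = 0.00974, adjusted p = 0.279) and that of Tuba1a 0.31 (SE 0.20; edgeR, unadjusted p = 0.179), each of the sign of the tubulin row across from it. Opposite-strand rows of Tubb3 held 131 counts in sham replicate 1 and 58 in CCI replicate 3, and at most 1 in each other library.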
